A study of Avena sativa with 108 samples.

Results

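The 3 genes annotated as CSLH1 (cellulose synthase-like H1) in the gene models of hexaploid oat (Avena sativa) were followed through grain maturation and germination. They are AVESA.00001b.r3.2Ag0001132, AVESA.00001b.r3.2Cg0001868 and AVESA.00001b.r3.2Dg0003695, called here the A, C and D homeologs after the subgenome letter in the identifier. The members were taken by identifier, and they are 3 of the 68572 genes counted. All 3 passed the filter on low counts in each experiment, among 62030 genes tested in developing grain and 62447 in germinating grain. Whole grain without glumes was sampled from the cultivars CDC Morrison and AC Morgan at 5, 10, 15, 20, 25, 30, 35 and 40 days postemergence of the panicle (DPE), with 10 grains of 1 panicle pooled in each of 3 replicates (48 libraries). Embryo and endosperm were sampled separately from grain of the same cultivars at 0, 3, 6, 24 and 48 h of germination on damp paper, with 3 replicates each (60 libraries). The groups are set apart by cultivar, tissue and time. The study's methods state that seed received a fungicide (Baytan T) before it was sown to grow the plants. CDC Morrison is the cultivar with more mixed-linkage glucan in its grain.

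Mixed-linkage glucan, or (1,3;1,4)-β-D-glucan, is an unbranched glucose polymer of grass cell walls and the main soluble fibre of oat grain. It is made by glycosyltransferases of the cellulose synthase-like families CSLF, CSLH and CSLJ, which sit in membranes and add glucose from UDP-glucose. CSLF6 is the main synthase of cereal endosperm, while CSLH1 of barley can make the polymer when it is introduced into Arabidopsis, a plant that lacks it. During germination of barley the polymer is cleaved by (1,3;1,4)-β-glucan endohydrolases (lichenases), named GUB here.

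Depth lay between 11235846 and 30846412 counts per library in the 47 libraries of developing grain that were used, and between 3895703 and 39871377 in germination. Replicate 1 of CDC Morrison at 10 DPE, with 2184611 counts, was left out, so that this group has 2 libraries. Levels are given as CPM, counts relative to the TMM-scaled size of each library. They were not divided by gene length, so the homeologs are compared with each other only through changes in their shares. Near-identical homeologs can receive each other's reads in the quantification, so a single homeolog is less certain than the sum of the 3. In developing grain the 58 genes named avenin, 12S globulin or granule-bound starch synthase 1, a list for starchy endosperm, took 0.0370 to 50.3% of all counts by group mean. In germinating grain the same list summed to 26.8 to 8654 CPM in the 30 embryo libraries and 8668 to 163100 CPM in the 30 endosperm libraries, ranges that did not overlap. WUSCHEL-related homeobox genes, markers of embryo meristems, summed to 9.14 to 110.1 CPM in embryo and 0.688 to 6.49 CPM in endosperm. The full embryo list, with KNOX, SCARECROW, SHORT-ROOT and PLETHORA or AP2-like genes added, overlapped between the tissues (377 to 877 CPM in embryo, 439 to 649 CPM in endosperm), and SHORT-ROOT genes had a median of 0 in endosperm. The KNOX genes of that list had the higher median in endosperm (101 CPM in embryo, 146 CPM in endosperm). Alpha-amylase, the starch-degrading enzyme of aleurone and scutellum, was found in all libraries of the 2 tissues, at up to 3155 CPM in embryo and 13290 CPM in endosperm. Chlorophyll a-b binding genes, markers of green maternal pericarp, summed to 5.80 to 2441 CPM in developing grain.

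**Figure D1:**
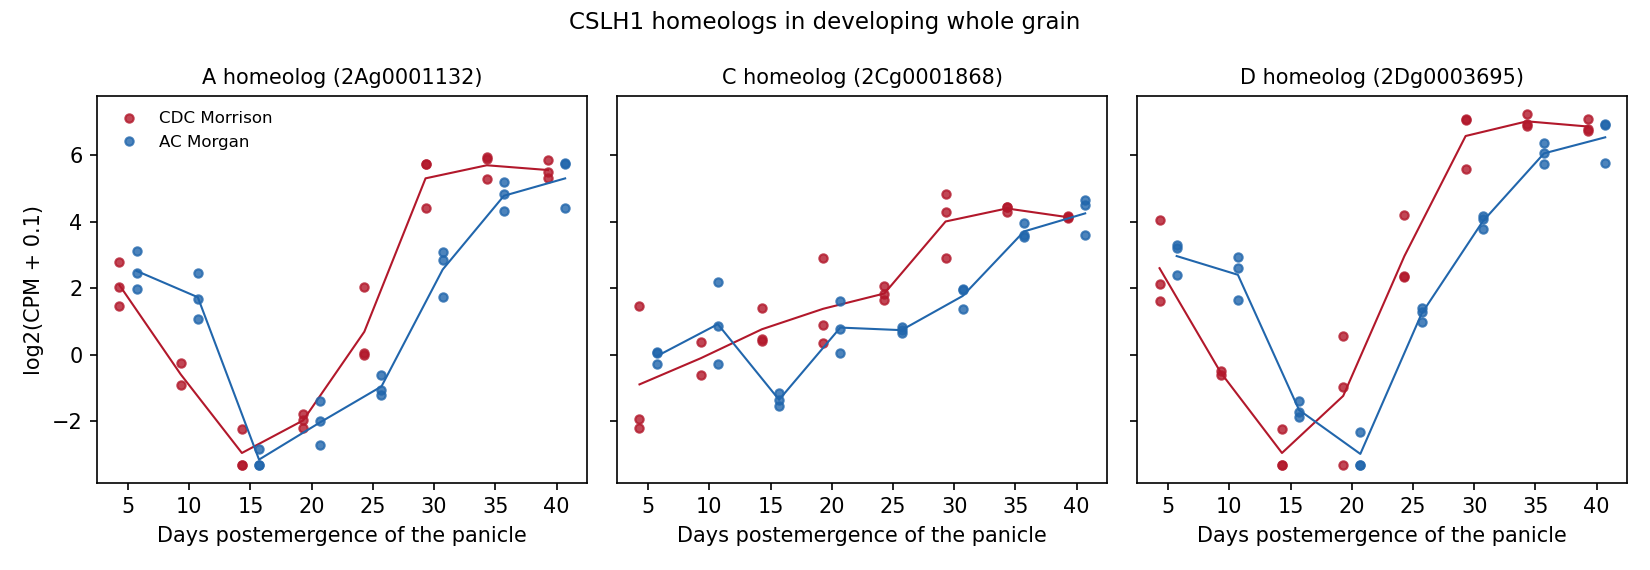
Level of each CSLH1 homeolog in whole grain, as log2(CPM + 0.1), against DPE, with 1 point per library and lines through the means (3 libraries per group, 2 for CDC Morrison at 10 DPE). The A and D homeologs reach their lowest levels at 15 or 20 DPE and their plateau by 30 DPE in CDC Morrison, while AC Morgan comes to the same level at 40 DPE.

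All 3 homeologs were far higher at 40 DPE than at 20 DPE in each cultivar. The A homeolog had 44.8, 39.7 and 58.4 CPM in CDC Morrison grain at 40 DPE, against 0.117, 0.158 and 0.192 CPM at 20 DPE. In AC Morgan it had 21.2, 54.4 and 53.3 CPM at 40 DPE, against 0.0519, 0.282 and 0.151 CPM at 20 DPE. The libraries at 40 DPE lay above those at 20 DPE with no overlap for 3 of 3 homeologs in each cultivar, as they did for 25.3% of all genes tested (CDC Morrison) and 28.1% (AC Morgan).

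The D homeolog had 110.4, 106 and 136 CPM at 40 DPE in CDC Morrison, against 0.408, 0 and 1.39 CPM at 20 DPE. In AC Morgan its levels were 55.0, 122 and 120.1 CPM at 40 DPE, against 0, 0 and 0.101 CPM at 20 DPE. The fold change of the C homeolog was smaller than those of A and D: it had 17.8, 17.4 and 17.3 CPM at 40 DPE in CDC Morrison, against 1.17, 1.74 and 7.47 CPM at 20 DPE. In AC Morgan it had 12.1, 25.0 and 22.6 CPM at 40 DPE, against 0.933, 2.99 and 1.61 CPM at 20 DPE.

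In the quasi-likelihood test of edgeR, with p-values adjusted by Benjamini-Hochberg across every gene tested, the log2 fold change of 40 over 20 DPE in CDC Morrison was 8.19 ± 0.69 (SE) for A (adjusted p = 9.93e-12), 2.32 ± 0.65 for C (adjusted p = 0.00279) and 7.56 ± 0.73 for D (adjusted p = 1.58e-10). In AC Morgan the same test gave 8.04 ± 0.69 for A (adjusted p = 9.92e-12), 3.44 ± 0.69 for C (adjusted p = 6.78e-05) and 11.27 ± 0.98 for D (adjusted p = 1.29e-11). Thus 3 of 3 homeologs rose in each cultivar, where 24.1% of all genes tested rose in CDC Morrison and 26.2% in AC Morgan. With the 3 homeologs summed to 1 gene the rise was 5.42 (CDC Morrison) and 6.32 (AC Morgan). The fitted value for D in AC Morgan rests on 2 counts over the 3 libraries at 20 DPE. The ratio of scaled summed counts for it was 2849, with an exact 95% interval of 788 to 23530 that covers counting error only. The ratios with more counts behind them were 275 (145 to 602) for A and 11.1 (9.05 to 13.7) for C in AC Morgan, and 300.5 (158 to 658) for A, 4.76 (4.09 to 5.56) for C and 186 (134 to 266) for D in CDC Morrison. In whole grain, fewer cells that express a gene and less RNA per cell cannot be told apart. Whether the 2 cultivars differed in the rise from 20 to 40 DPE was tested in the same fit, and no homeolog passed the threshold, where 2.92% of all genes did: the differences (CDC Morrison minus AC Morgan) were 0.16 ± 1.19 for A, -1.11 ± 0.91 for C and -3.71 ± 1.48 for D.

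The rise was followed in 5-day steps within each cultivar. Mean levels of the A homeolog at 20, 25, 30, 35 and 40 DPE were 0.156 ± 0.0376, 1.93 ± 1.76, 42.9 ± 18.7, 53.0 ± 12.5 and 47.6 ± 9.68 CPM in CDC Morrison (SD, n = 3). In AC Morgan the same times gave 0.162 ± 0.115, 0.424 ± 0.121, 6.27 ± 2.71, 28.2 ± 8.07 and 43.0 ± 18.9 CPM. For the D homeolog they were 0.599 ± 0.714, 9.41 ± 7.61, 106 ± 50.6, 131 ± 18.1 and 117 ± 16.2 CPM in CDC Morrison. CDC Morrison thus gained most CPM between 25 and 30 DPE for both homeologs. In AC Morgan the D homeolog had 0.0335 ± 0.0580, 2.27 ± 0.334, 16.2 ± 2.29, 67.6 ± 14.2 and 99.1 ± 38.3 CPM, still rising after 30 DPE. The C homeolog had 3.46 ± 3.49, 3.51 ± 0.551, 18.4 ± 10.4, 21.1 ± 1.29 and 17.5 ± 0.288 CPM in CDC Morrison. In AC Morgan it had 1.84 ± 1.05, 1.57 ± 0.109, 3.37 ± 0.762, 13.1 ± 2.22 and 19.9 ± 6.88 CPM.

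Between 25 and 20 DPE, 2 of 3 homeologs were higher at the later time in CDC Morrison (2.35% of all genes), with log2 fold changes of 3.59 ± 0.73 for A and 3.92 ± 0.67 for D by edgeR's quasi-likelihood test. The call for A was lost without replicate 2 at 20 DPE or replicate 3 at 25 DPE (2.51 to 3.93 over the libraries left out). In AC Morgan 1 of 3 was higher at 25 DPE (6.71% of all genes), D at 5.81 ± 1.12, on 2 counts at 20 DPE (5.27 to 8.75 over the libraries left out). The 3 homeologs summed did not pass this step (1.07). From 25 to 30 DPE all 3 rose in CDC Morrison (16.9% of all genes), by 4.45 ± 0.52 for A, 2.38 ± 0.65 for C and 3.49 ± 0.57 for D. In AC Morgan over the same days 2 of 3 rose (0.468% of all genes), A by 3.89 ± 0.59 and D by 2.84 ± 0.59. The call for D was lost when replicate 1, 2 or 3 at 25 DPE or replicate 2 at 30 DPE was left out (2.72 to 2.95). From 30 to 35 DPE all 3 rose in AC Morgan (16.3% of all genes), by 2.17 ± 0.46 for A, 1.96 ± 0.64 for C and 2.06 ± 0.54 for D. The call for C was lost without replicate 2 at 30 DPE (1.78 to 2.06). In CDC Morrison no homeolog passed from 30 to 35 DPE (0.20 to 0.31), where 0.0951% of all genes did, and 40 over 30 DPE gave 0.15 ± 0.44 for A, -0.07 ± 0.61 for C and 0.14 ± 0.51 for D, none past the threshold, where 4.23% of all genes passed. In AC Morgan 40 over 30 DPE gave 2.77 ± 0.47, 2.56 ± 0.65 and 2.62 ± 0.55 for A, C and D, 3 of 3 past the threshold (16.9% of all genes). The step from 35 to 40 DPE did not pass the threshold for any homeolog in either cultivar (log2 fold changes from -0.27 to 0.61), as was so for nearly every gene: 0.0242% of all genes passed in CDC Morrison and 0.00322% in AC Morgan.

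Before the rise the A and D homeologs had a low phase that the C homeolog shared in part. In AC Morgan all 3 fell from 10 to 15 DPE (14.7% of all genes fell), by edgeR log2 fold changes of -7.35 ± 0.96 for A, -2.94 ± 0.83 for C and -4.60 ± 0.76 for D. The A homeolog had 0, 0 and 0.0406 CPM at 15 DPE, which is 1 count in 3 libraries, against 3.09, 1.999 and 5.35 CPM at 10 DPE. The call for C was lost without replicate 3 at 10 DPE (-3.37 to -2.05 over the libraries left out). The starchy endosperm list moved over the same days: it took 50.3% of all counts at 15 DPE and 0.113% at 10 DPE in CDC Morrison, and 34.4% and 0.109% in AC Morgan, and its part in the CSLH1 change was not tested. The step from 5 to 10 DPE did not pass in AC Morgan for any homeolog (3.93% of all genes passed). In CDC Morrison A and D were already lower at 10 than at 5 DPE (2 of 3, where 6.82% of all genes fell), by -2.92 ± 0.62 and -3.73 ± 0.75. The A homeolog had 0.429 and 0.734 CPM at 10 DPE in CDC Morrison, against 6.76, 2.65 and 4.005 CPM at 5 DPE. They fell again from 10 to 15 DPE (2 of 3, where 14.0% of all genes fell), to 2 counts of A and 2 counts of D in all CDC Morrison libraries at 15 DPE. The call for A was lost without replicate 3 at 10 DPE or replicate 1 or 2 at 15 DPE, and that for D without any 1 of the 5 libraries (-6.83 to -3.16 for A and -6.84 to -3.17 for D), and the 3 homeologs summed did not pass this step (-0.23). The C homeolog had 0.973 ± 1.44 CPM in CDC Morrison at 5 DPE (SD, n = 3), of which replicate 1 held 2.64 CPM and the others 0.117 and 0.161 CPM. At 10 DPE, A and D were lower in CDC Morrison than in AC Morgan (2 of 3 homeologs, 11.2% of all genes), by -2.55 ± 0.62 and -3.22 ± 0.74. The call for A was lost without CDC Morrison replicate 2 (-2.99 to -2.11). Chlorophyll a-b binding genes at 10 DPE summed to 1925 and 2441 CPM in CDC Morrison, against 218 to 525 CPM in AC Morgan, and their part in this difference was not tested.

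The cultivars differed most clearly at 30 DPE. The A homeolog had 53.7, 53.8 and 21.3 CPM in CDC Morrison, against 3.25, 7.09 and 8.47 CPM in AC Morgan. The C homeolog had 19.4, 28.2 and 7.47 CPM in CDC Morrison, against 3.77, 2.49 and 3.84 CPM in AC Morgan. The D homeolog had 138, 133 and 47.8 CPM in CDC Morrison, against 13.7, 18.1 and 16.7 CPM in AC Morgan. Replicate 3 of CDC Morrison was the lowest of its group for each homeolog, and still above all 3 AC Morgan libraries, so that 3 of 3 homeologs were higher with no overlap, where 21.7% of all genes were. In the edgeR quasi-likelihood test (Benjamini-Hochberg adjusted) the log2 fold change of CDC Morrison over AC Morgan was 2.77 ± 0.47 for A (adjusted p = 1.88e-05), 2.44 ± 0.65 for C (adjusted p = 0.00334) and 2.71 ± 0.55 for D (adjusted p = 0.000202). That is 3 of 3 homeologs higher, where 17% of all genes were. Each of the 3 calls held without any 1 of the 6 libraries (1.99 to 3.09).

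At 35 DPE the CDC Morrison libraries again lay above those of AC Morgan with no overlap for 3 of 3 homeologs, where 16.3% of all genes did so, but the differences did not pass the threshold (0.91 ± 0.44 for A, 0.69 ± 0.61 for C and 0.95 ± 0.52 for D, where 12.7% of all genes passed). The A homeolog there had 59.2, 38.7 and 61.2 CPM in CDC Morrison and 20.1, 28.3 and 36.3 CPM in AC Morgan. At 40 DPE the cultivars overlapped for all 3 (12.9% of all genes were higher in CDC Morrison with no overlap), with log2 fold changes of 0.15 ± 0.44, -0.19 ± 0.61 and 0.24 ± 0.51 for A, C and D (12.9% of all genes passed). At 25 DPE, A (2.21 ± 0.62) and D (2.07 ± 0.58) were higher in CDC Morrison, 2 of 3 homeologs where 4.40% of all genes were. Both calls were lost without CDC Morrison replicate 3 or AC Morgan replicate 3, and 1 of them each without AC Morgan replicate 1 (A) or 2 (D) (1.13 to 2.55 for A and 1.16 to 2.38 for D). At 20 DPE only D passed (3.95 ± 1.34, 1 of 3 homeologs where 6.86% of all genes were higher), on 2 counts in AC Morgan, and the call was lost without replicate 1 or 3 of CDC Morrison or replicate 1 or 2 of AC Morgan (2.31 to 6.89). Over the mean of 30, 35 and 40 DPE, 3 of 3 were higher in CDC Morrison (16.4% of all genes): A by 1.28 ± 0.26, C by 0.98 ± 0.36 and D by 1.30 ± 0.30. The call for C was lost without replicate 2 of AC Morgan at 30 DPE or 35 DPE, replicate 1 of AC Morgan at 40 DPE or replicate 2 of CDC Morrison at 30 DPE (0.83 to 1.11). The change from 30 to 40 DPE differed between the cultivars for A (-2.62 ± 0.63, edgeR quasi-likelihood test, Benjamini-Hochberg adjusted p = 0.00798) and D (-2.47 ± 0.74, adjusted p = 0.0299), 2 of 3 homeologs where 5.17% of all genes had a lower change in CDC Morrison. For C it was -2.63 ± 0.88 (adjusted p = 0.0536). The call for A held without any 1 of the 12 libraries (-2.95 to -2.31). That for D was lost without replicate 1 or 3 of AC Morgan at 30 DPE, replicate 2 or 3 of AC Morgan at 40 DPE, or replicate 1 or 2 of CDC Morrison at 30 or 40 DPE (-2.82 to -2.23).

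**Figure D2:**
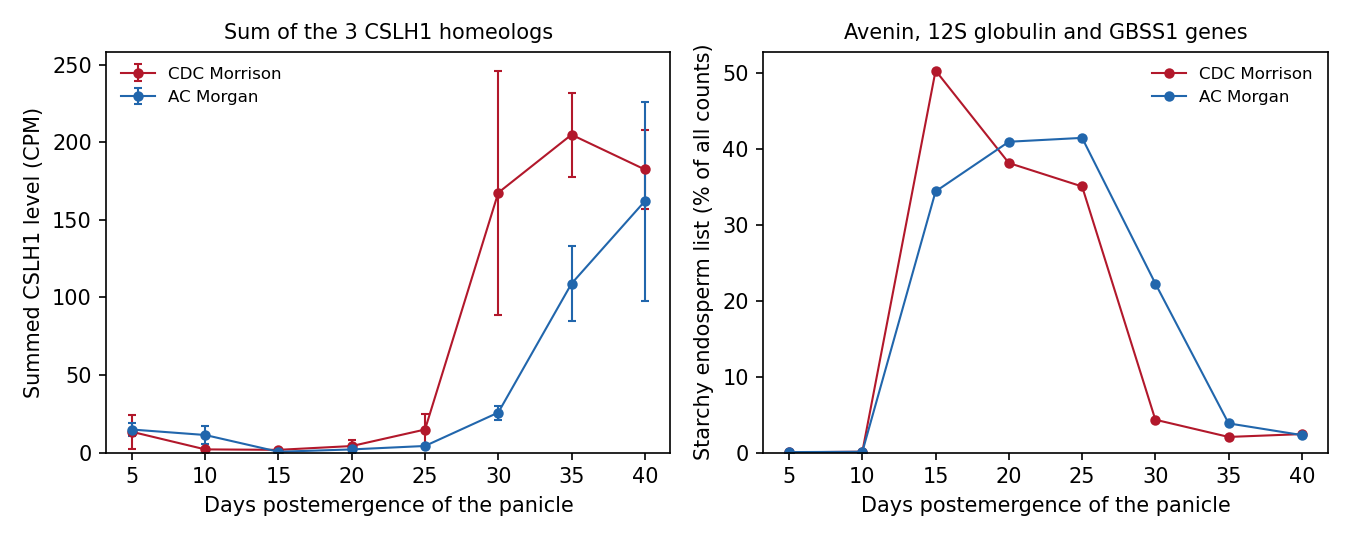
Left, summed level of the 3 CSLH1 homeologs in CPM against DPE (mean ± SD, 3 libraries per group, 2 for CDC Morrison at 10 DPE). Right, mean share of all counts taken by the starchy endosperm list of 58 genes. At 30 DPE, CDC Morrison stands at 168 CPM and 4.33%, and AC Morgan at 25.8 CPM and 22.3%.

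The summed level of the 3 homeologs at 30 DPE was 211, 215 and 76.6 CPM in CDC Morrison, against 20.7, 27.7 and 29.0 CPM in AC Morgan. The starchy endosperm list moved with this difference. At 25 DPE it took 35.0% of all counts in CDC Morrison and 41.4% in AC Morgan. At 30 DPE it took 4.33% in CDC Morrison and 22.3% in AC Morgan. At 35 DPE the shares were 2.06% in CDC Morrison and 3.84% in AC Morgan, and at 40 DPE they were 2.43% and 2.30%, with overlapping libraries. In summed CPM the list lay between 14980 and 80760 in the 3 CDC Morrison libraries at 30 DPE and between 215100 and 225100 in those of AC Morgan, and all 58 of its genes were tested. Its part in the CSLH1 difference was not tested.

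Shares of the summed CSLH1 count in late grain lay within a few points of each other in the cultivars. In libraries with a summed count of at least 50, the D homeolog made up 64.3 ± 0.588% at 40 DPE in CDC Morrison and 61.4 ± 0.842% in AC Morgan (SD, n = 3). The A homeolog made up 26.0 ± 1.62% in CDC Morrison and 26.1 ± 1.80% in AC Morgan, and C made up 9.72 ± 1.36% and 12.5 ± 1.10%. Within 30, 35 and 40 DPE the C share differed by -2.45 percentage points between CDC Morrison and AC Morgan (exact permutation test within time points, two-sided, 9 libraries against 9, p = 0.0335, Benjamini-Hochberg adjusted over 30 share tests p = 0.0558). A differed by 0.837 points (exact permutation p = 0.664) and D by 1.62 points (exact permutation p = 0.171). Between 40 and 30 DPE the shares differed by 1.19 points for A, -0.951 for C and -0.239 for D as means of the cultivars (exact permutation p from 0.56 to 0.88), and the A and D shares differed in opposite directions in the cultivars. In AC Morgan alone, where no test was run, the A share was 26.1 ± 1.80% at 40 DPE and 23.5 ± 7.03% at 30 DPE. Earlier grain had other shares. At 25 DPE, C made up 28.5 ± 11.2% in CDC Morrison and 37.1 ± 4.01% in AC Morgan, and A made up 11.8 ± 2.92% and 9.96 ± 1.84%. At 20 DPE only 1 library of each cultivar reached 50 counts, with C at 82.8% in CDC Morrison and 91.4% in AC Morgan. At 5 DPE, A made up 40.0 ± 12.1% in CDC Morrison and 39.6 ± 6.54% in AC Morgan, with C at 4.72 ± 4.73% and 6.49 ± 2.96%.

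**Figure D3:**
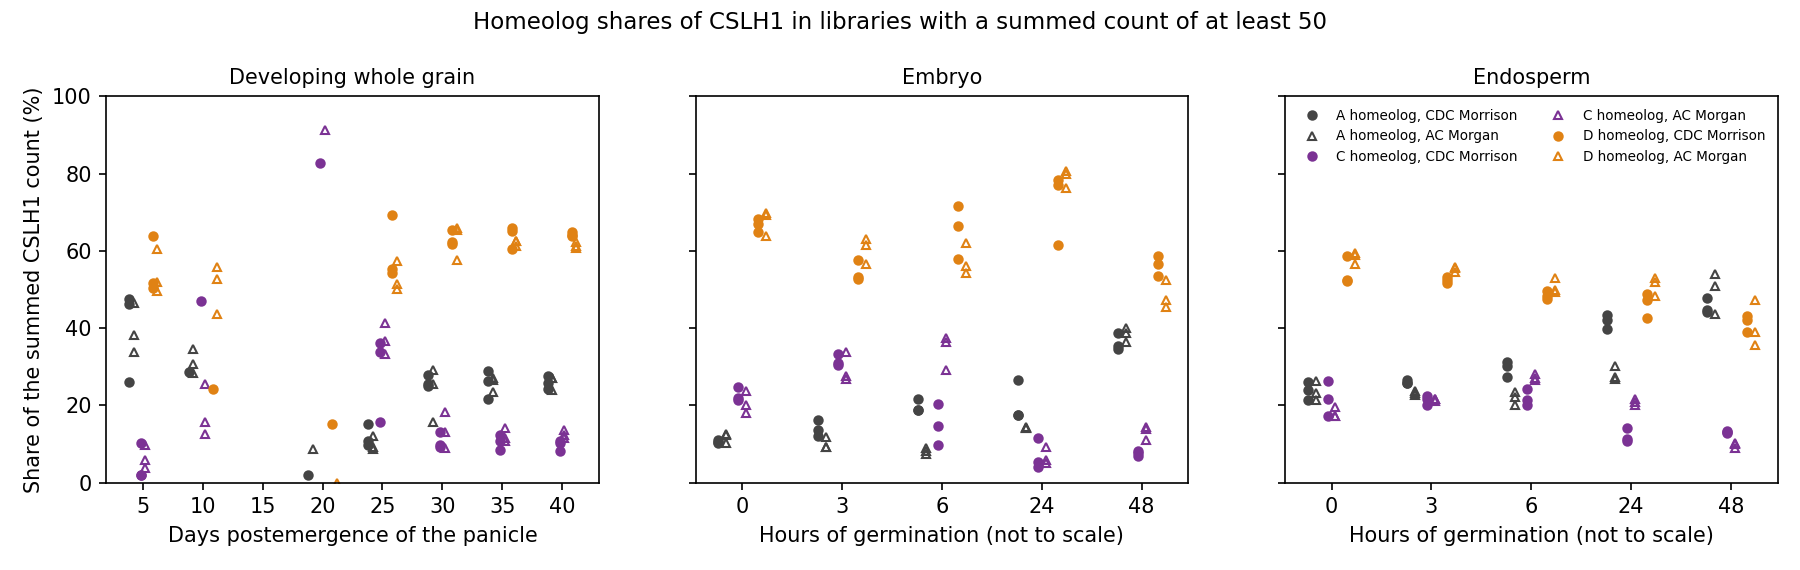
Share of each homeolog in the summed CSLH1 count, in percent, for every library with a summed count of at least 50, by DPE in whole grain and by hours of germination in embryo and endosperm. Filled circles are CDC Morrison and open triangles are AC Morgan. The C homeolog holds 82.8 and 91.4% in the 2 libraries at 20 DPE and about 10% at 40 DPE, and A reaches the highest share in endosperm at 48 h.

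Across the 47 libraries of developing grain the A and D homeologs had a Pearson correlation of 0.978 on log2(CPM + 0.5). The C homeolog correlated with A at 0.816 and with D at 0.838. Across the 60 libraries of germination the closest pair was C and D (0.927), followed by A and D (0.820) and A and C (0.771). These values are descriptions, since the points share library, time point and scaling.

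In germinating grain all 3 homeologs were lower in embryo than in endosperm at each of the 5 times. At 0 h the A homeolog had 4.59, 13.4 and 12.9 CPM in CDC Morrison embryo, against 28.3, 48.5 and 95.2 CPM in endosperm. In AC Morgan at 0 h it had 11.9, 10.7 and 11.6 CPM in embryo, against 88.0, 111 and 69.2 CPM in endosperm. The A homeolog was lower in embryo with no overlap in each cultivar at each time, where 12.6 to 29.0% of all genes were, depending on the cultivar and time. The same held for C and D, except in CDC Morrison, where C and D overlapped at 0 h and D overlapped at 48 h.

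The D homeolog at 0 h had 28.6, 80.7 and 84.4 CPM in CDC Morrison embryo, against 57.0, 118 and 233 CPM in endosperm, so that these groups overlapped. In AC Morgan at 0 h it had 65.2, 73.6 and 60.4 CPM in embryo, against 189.7, 285 and 189.8 CPM in endosperm. At 24 h the C homeolog had 0.848, 2.33 and 2.15 CPM in CDC Morrison embryo, against 25.8, 21.9 and 34.0 CPM in endosperm. In AC Morgan at 24 h it had 3.49, 2.19 and 2.11 CPM in embryo, against 37.3, 49.7 and 44.5 CPM in endosperm, the largest fitted difference between the tissues for this homeolog.

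**Figure D4:**
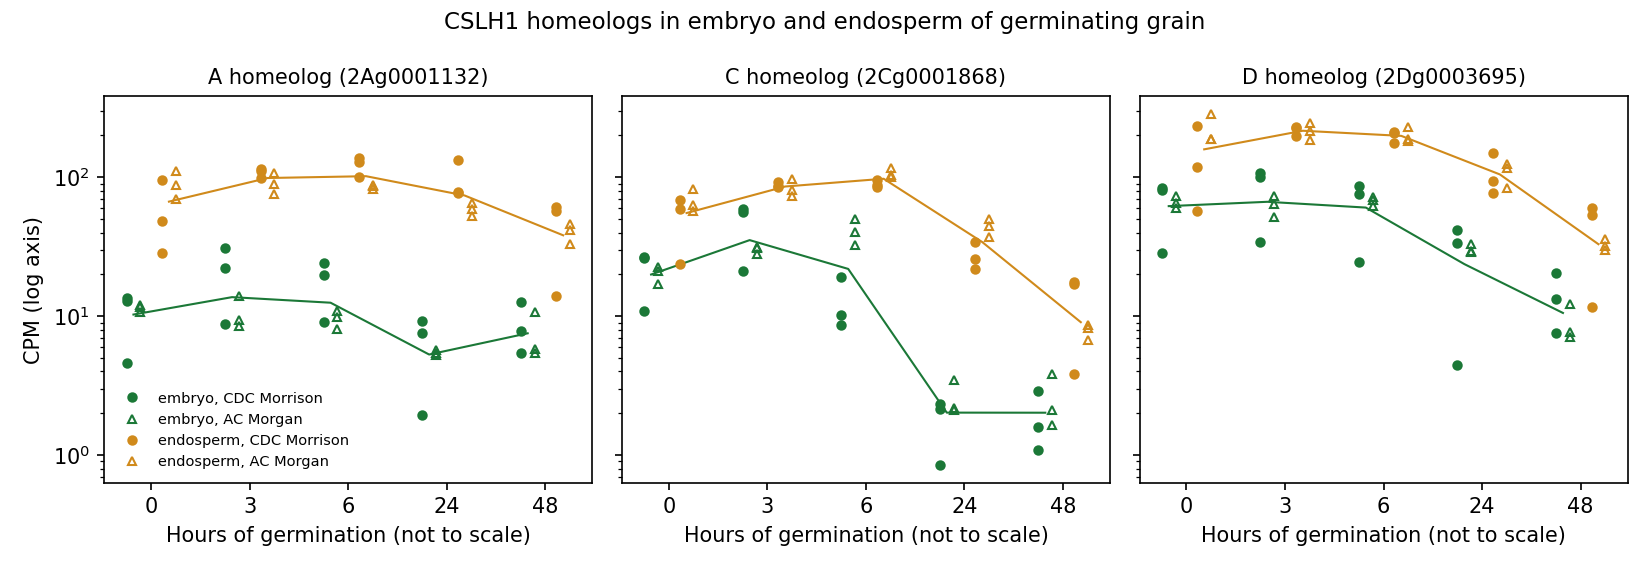
Level of each CSLH1 homeolog in CPM (log axis) at 0, 3, 6, 24 and 48 h of germination, with 1 point per library (filled circles CDC Morrison, open triangles AC Morgan) and lines through the geometric means of the 6 libraries. Embryo lies below endosperm at each time, and the C homeolog in embryo is near 2 CPM at 24 and 48 h.

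Averaged over the cultivars, the log2 fold change of embryo over endosperm for A was -2.72 ± 0.33, -2.74 ± 0.33, -2.97 ± 0.33, -3.69 ± 0.34 and -2.41 ± 0.32 at 0, 3, 6, 24 and 48 h, with edgeR quasi-likelihood, Benjamini-Hochberg adjusted p from 6.87e-13 to 1.35e-08. For C it was -1.49 ± 0.28, -1.21 ± 0.27, -2.11 ± 0.28, -4.04 ± 0.32 and -2.21 ± 0.30 at the same times, with edgeR adjusted p from 3.71e-15 to 0.000242. For D it was -1.41 ± 0.35, -1.61 ± 0.35, -1.62 ± 0.35, -1.92 ± 0.36 and -1.73 ± 0.36, with edgeR adjusted p from 1.03e-05 to 0.00122. Thus 3 of 3 homeologs were lower at each time, where 16.1, 19.7, 23.9, 27.5 and 25.6% of all genes were lower in embryo at 0, 3, 6, 24 and 48 h. Within CDC Morrison alone, 14 of the 15 comparisons of 3 homeologs at 5 times passed the threshold, where 10.9, 15.2, 21.7, 21.7 and 18.8% of all genes were lower in embryo at 0, 3, 6, 24 and 48 h. Within AC Morgan 15 of 15 passed, where 10.9, 13.1, 15.3, 22.0 and 20.0% of all genes did. The exception was D at 0 h in CDC Morrison (-1.07 ± 0.50, edgeR quasi-likelihood, Benjamini-Hochberg adjusted p = 0.107). Summed to 1 gene, CSLH1 was lower in embryo at each time (-1.64, -1.71, -1.94, -2.59 and -2.06). The averaged calls held when any 1 library was left out. With library size in place of TMM scaling the C homeolog at 3 h no longer passed (-0.49). Within AC Morgan, library size alone also lost C at 3 h (-0.79) and C and D at 6 h (-0.65 and -0.82). Within CDC Morrison it lost C at 0 and 3 h (-0.46 and -0.19) and D at 3 and 6 h (-0.68 and -0.97), and a separate fit of that cultivar lost C at 0 and 3 h (-1.28 and -0.94) and D at 3 h (-1.42). With single libraries left out the 15 calls within AC Morgan held. Within CDC Morrison C at 0 h was lost without embryo replicate 1 or endosperm replicate 2 or 3 (-1.58 to -0.92), C at 3 h without embryo replicate 1 or any endosperm replicate (-1.20 to -0.62), D at 3 h without embryo replicate 1 (-1.71 to -1.08) and D at 48 h without embryo replicate 1 or endosperm replicate 3 (-2.04 to -1.26). D at 0 h passed without endosperm replicate 1 (-1.45 to -0.42).

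**Figure D5:**
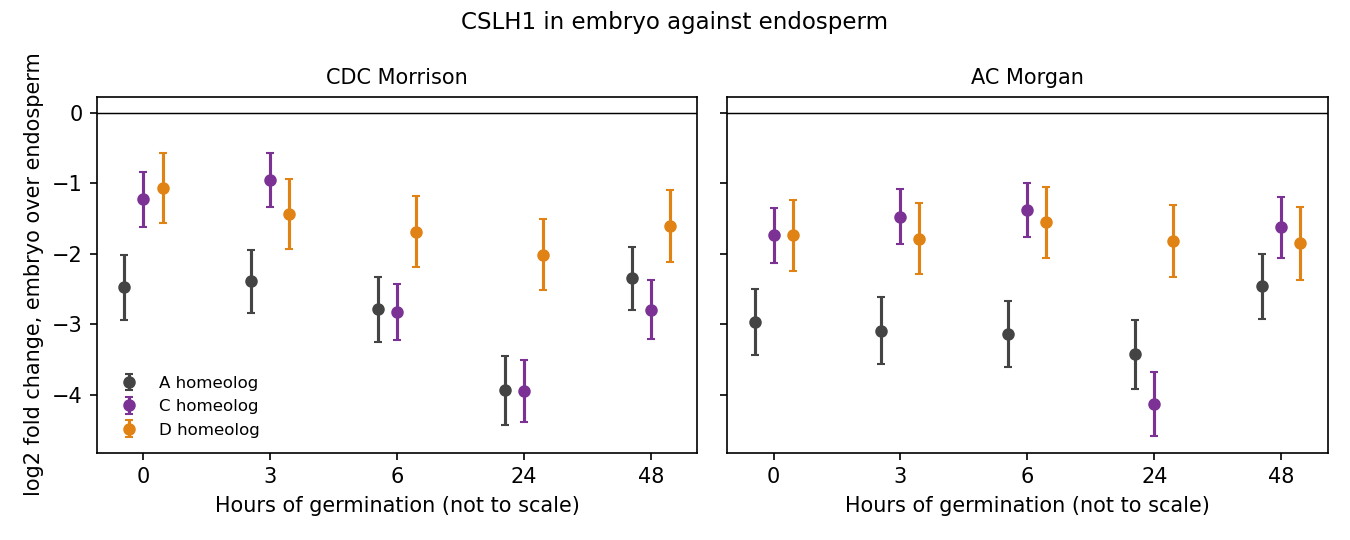
Log2 fold change of embryo over endosperm for each CSLH1 homeolog at 5 times in each cultivar, from the edgeR fit, with bars of 1 SE (3 libraries per group). All values lie below 0, from -0.95 for C in CDC Morrison at 3 h to -4.14 for C in AC Morgan at 24 h.

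C and D were lower at 48 h than at 0 h in both tissues, and each homeolog had its own course. In embryo the A homeolog had 10.3 ± 4.96, 20.6 ± 11.2, 17.7 ± 7.72, 6.25 ± 3.82 and 8.69 ± 3.70 CPM in CDC Morrison at 0, 3, 6, 24 and 48 h (SD, n = 3). In AC Morgan embryo it had 11.4 ± 0.658, 10.6 ± 2.93, 9.65 ± 1.42, 5.46 ± 0.264 and 7.28 ± 2.92 CPM. In embryo the D homeolog had 64.6 ± 31.2, 80.4 ± 40.4, 61.9 ± 32.7, 26.5 ± 19.4 and 13.8 ± 6.41 CPM in CDC Morrison. The mean of D was thus lowest at 48 h, and that of A at 24 h. In AC Morgan embryo D had 66.4 ± 6.70, 62.7 ± 10.8, 67.7 ± 5.31, 30.5 ± 2.16 and 9.001 ± 2.77 CPM. The C homeolog in embryo had 21.3 ± 8.93, 45.6 ± 21.2, 12.6 ± 5.61, 1.77 ± 0.808 and 1.87 ± 0.930 CPM in CDC Morrison. In AC Morgan embryo it had 20.3 ± 2.88, 30.1 ± 2.01, 40.9 ± 8.69, 2.60 ± 0.780 and 2.53 ± 1.17 CPM, with its highest mean at 6 h, against 3 h in CDC Morrison.

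From 6 to 24 h all 3 homeologs fell in embryo (24.9% of all genes fell), by edgeR log2 fold changes of -1.16 ± 0.32 for A, -3.43 ± 0.31 for C and -1.19 ± 0.35 for D, means of the cultivars. From 24 to 48 h only D passed the threshold in embryo (-1.35 ± 0.36, where 9.79% of all genes fell, and -0.77 for the 3 homeologs summed, which did not pass). At 48 h, against 0 h, C (-3.23 ± 0.30) and D (-2.55 ± 0.37) were lower in embryo (2 of 3 homeologs, 27.7% of all genes), and A was not past the threshold (-0.44 ± 0.32). The C homeolog was higher in embryo at 3 h than at 0 h (0.84 ± 0.27, edgeR quasi-likelihood, Benjamini-Hochberg adjusted p = 0.0368, where 6.33% of all genes were higher). This call was lost without any 1 of 7 of the 12 libraries (0.68 to 1.01): AC Morgan replicates 1 and 2 at 0 h and 2 and 3 at 3 h, and CDC Morrison replicate 1 at 0 h and replicates 2 and 3 at 3 h. The 3 homeologs summed did not pass between 0 and 3 h in embryo (0.34). The starchy endosperm list moved over the same hours: in CDC Morrison embryo it averaged 332 CPM at 24 h against 654 CPM at 6 h, and in AC Morgan embryo 33.5 CPM against 1347 CPM. Endosperm at 6 h averaged 82970 CPM (CDC Morrison) and 79750 CPM (AC Morgan). The part of endosperm RNA in the embryo values was not tested.

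In endosperm the levels were highest at 3 and 6 h by mean in CDC Morrison, and neither the step from 0 to 3 h nor that from 3 to 6 h passed the threshold as a mean of the cultivars (-0.12 to 0.56). Few genes passed there: 0.216% of all genes from 0 to 3 h and 0.378% from 3 to 6 h. The A homeolog had 57.3 ± 34.3, 108 ± 8.61, 122 ± 19.6, 96.0 ± 31.2 and 44.1 ± 26.1 CPM in CDC Morrison endosperm at 0, 3, 6, 24 and 48 h (SD, n = 3). In AC Morgan endosperm it had 89.4 ± 21.0, 91.1 ± 15.8, 85.4 ± 3.28, 59.0 ± 6.37 and 40.2 ± 6.44 CPM. The C homeolog had 50.2 ± 23.5, 88.4 ± 3.71, 89.4 ± 5.19, 27.2 ± 6.17 and 12.8 ± 7.80 CPM in CDC Morrison endosperm. C thus lost most of its level between 6 and 24 h there. In AC Morgan endosperm C had 67.8 ± 13.3, 83.8 ± 12.4, 107 ± 8.32, 43.8 ± 6.23 and 7.85 ± 1.01 CPM. The D homeolog had 136 ± 89.5, 218 ± 18.3, 199 ± 18.9, 107 ± 37.1 and 41.7 ± 26.3 CPM in CDC Morrison endosperm. In AC Morgan endosperm D had 222 ± 55.0, 216 ± 30.1, 199 ± 25.2, 108 ± 21.6 and 32.7 ± 2.90 CPM.

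From 6 to 24 h, C (-1.50 ± 0.27) and D (-0.89 ± 0.35) fell in endosperm by the edgeR fit, 2 of 3 homeologs where 19.7% of all genes fell. The call for D was lost without any 1 of 7 of the 12 libraries (-1.05 to -0.81): AC Morgan replicate 3 at 6 h and 1 and 3 at 24 h, and CDC Morrison replicates 2 and 3 at 6 h and 1 and 2 at 24 h. From 24 to 48 h, C (-1.76 ± 0.28) and D (-1.54 ± 0.36) fell again (2 of 3, 9.40% of all genes), and A was at -0.83 ± 0.31 (edgeR quasi-likelihood, Benjamini-Hochberg adjusted p = 0.0514), which passed without CDC Morrison replicate 2 or 3 at 48 h (-0.98 to -0.62). At 48 h, against 0 h, 3 of 3 homeologs were lower in endosperm (24.9% of all genes): A by -0.76 ± 0.31, C by -2.51 ± 0.29 and D by -2.23 ± 0.36. The call for A was lost without replicate 2 of AC Morgan or replicate 3 of CDC Morrison at 0 h, or without replicate 1 or 3 of AC Morgan or replicate 1 of CDC Morrison at 48 h (-0.92 to -0.46). With library size in place of TMM scaling, A at 48 h against 0 h did not pass either (-0.15), and D from 6 to 24 h did not pass (-0.49). A from 24 to 48 h passed with that scaling (-0.91). Alpha-amylase averaged 9818 CPM at 48 h against 31.8 CPM at 0 h in CDC Morrison endosperm, and 3607 CPM against 33.9 CPM in AC Morgan endosperm, and its part in the CSLH1 change was not tested. The change from 0 to 48 h did not pass the threshold for a difference between embryo and endosperm in any homeolog (0.32 ± 0.44 for A, -0.73 ± 0.40 for C, -0.33 ± 0.49 for D, where 34.7% of all genes passed). With library size in place of TMM scaling this difference passed for C (-1.09).

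Of 30 comparisons between the cultivars in germination, of 3 homeologs in 2 tissues at 5 times, 1 passed the threshold, where 9.97 to 24.0% of all genes passed at single times. The other 29 had log2 fold changes of CDC Morrison over AC Morgan from -0.71 to 0.95. In embryo at 6 h the C homeolog had 8.66, 19.0 and 10.2 CPM in CDC Morrison, against 40.4, 32.5 and 49.8 CPM in AC Morgan, with no overlap (16.7% of all genes were lower with no overlap). The log2 fold change was -1.70 ± 0.39 (edgeR quasi-likelihood, Benjamini-Hochberg adjusted p = 0.000842, 1 of 3 homeologs where 12% of all genes were lower), and it held without any 1 of the 6 libraries (-2.12 to -1.48). In CDC Morrison embryo C fell from 3 to 6 h (-1.86 ± 0.39, 1 of 3 homeologs where 11.3% of all genes fell, -2.27 to -1.61 without single libraries), and in AC Morgan embryo the same step was 0.44 ± 0.38 and did not pass (0.961% of all genes passed). Summed to 1 gene, CSLH1 in embryo at 6 h did not pass between the cultivars (-0.36), nor from 3 to 6 h in CDC Morrison embryo (-0.67). In embryo at 6 h, A (0.87 ± 0.44) and D (-0.13 ± 0.49) did not pass between the cultivars. Over the mean of the 5 times no homeolog passed in embryo (from -0.39 ± 0.18 for C to 0.42 ± 0.20 for A, where 31.9% of all genes passed) or in endosperm (from -0.11 ± 0.17 for C to 0.19 ± 0.19 for A, 35.4%). C in embryo did pass with library size in place of TMM scaling (-0.42) and with the replicate number in the model (-0.45). In embryo A passed without CDC Morrison replicate 1 at 3 or 24 h (0.34 to 0.51), and C without CDC Morrison replicate 2 at 6 h or replicate 3 at 48 h (-0.49 to -0.30). The CDC Morrison library numbered 1 had the lowest summed CSLH1 level of its group in 10 of 10 groups of embryo and endosperm, with 29.5 CPM in endosperm at 48 h beside 128 and 139 CPM in the other libraries. The 10 libraries of that number, seen to be low in CSLH1, were then left out together, a choice made after seeing the data. This raises the summed CDC Morrison level by construction, so the comparisons of the cultivars without them are descriptions and no tests. The 15 averaged differences between embryo and endosperm kept their calls. Within CDC Morrison C at 3 h was at -0.64 (edgeR adjusted p = 0.0567) and D at 0 h at -1.12 (adjusted p = 0.00106). Of the 30 comparisons of the cultivars at single times 10 were then past the threshold. In embryo they were A (1.32), C (0.94) and D (0.73) at 3 h, A (1.18) and C (-1.48) at 6 h, and D (0.93) at 48 h. In endosperm they were A (0.79) and C (-0.69) at 24 h, and C (1.13) and D (0.81) at 48 h. With single libraries left out, C in endosperm at 48 h passed without CDC Morrison replicate 1 (0.46 to 1.14). The difference between the cultivars also passed, without the 10 libraries, in embryo over the 5 times for A (0.77) and D (0.51), and in endosperm over the 5 times for A (0.40). C over the 5 times was at -0.08 in embryo and 0.04 in endosperm. Without these libraries A was also past the threshold between 24 and 6 h (-0.45) and between 48 and 24 h (-0.67) in endosperm and between 48 and 0 h in embryo (-0.46), and so was C for the difference between the tissues in the change from 0 to 48 h (-0.73). Whether the number marks a shared batch is not given by the labels, and its part in these differences was not tested.

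Homeolog shares differed between the tissues. The A homeolog made up 18.4 ± 10.5% of the summed CSLH1 count in the 30 embryo libraries and 31.3 ± 10.1% in the 30 endosperm libraries, a difference of -13.0 percentage points within cultivars and times. The D homeolog made up 62.8 ± 9.61% in embryo and 49.9 ± 6.08% in endosperm, a difference of 12.9 points. Each had p = 1e-05 in a two-sided permutation test within cultivars and times, the smallest that 100000 resamples can give (Benjamini-Hochberg adjusted p = 0.00015), and the same sign in 10 of 10 strata. The C share differed by 0.105 points (permutation p = 0.931). The shares of a library add up to its whole, so the A and D calls are not independent results, here and at single times.

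At single times, with 6 libraries against 6, A was lower in embryo in all 5 comparisons and D higher in all 5, with exact permutation p of 0.005 to 0.015 (adjusted 0.0136 to 0.0279 over 30 tests, and 0.005 is the smallest p the design allows). The gap was widest at 24 h, where D made up 75.7 ± 7.09% in embryo and 48.6 ± 3.71% in endosperm. The C share was higher in embryo at 3 h, with 30.5 ± 2.88% in embryo and 21.4 ± 0.785% in endosperm (exact permutation p = 0.005), and lower at 24 h, with 6.91 ± 2.90% and 16.5 ± 4.93% (exact permutation p = 0.015). At 0, 6 and 48 h the C shares of the tissues differed by 1.85, 0.108 and -0.994 points (exact permutation p from 0.285 to 0.955). Without replicate number 1, 2 or 3 none of these tests at single times could pass, since 4 libraries against 4 leave too few arrangements (adjusted exact permutation p of at least 0.104), and the calls kept their signs.

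Shares also shifted with time, in tests that were added after the values had been seen and adjusted over all 42 share tests. In embryo the A share was 37.3 ± 2.16% at 48 h and 11.2 ± 1.05% at 0 h, while C had 10.4 ± 3.29% at 48 h and 21.7 ± 2.46% at 0 h (exact permutation within cultivars, 6 against 6, p = 0.005 and adjusted p = 0.0111 for each). In endosperm the A share was 47.6 ± 4.24% at 48 h and 23.7 ± 2.11% at 0 h, and the D share was 41.04 ± 4.06% at 48 h and 56.4 ± 3.32% at 0 h, with the same exact permutation p. The A homeolog thus gained share in both tissues while C and D lost it. From 6 to 24 h the C share in embryo was 6.91 ± 2.90% at 24 h and 24.7 ± 11.5% at 6 h (exact permutation p = 0.01). Without replicate number 1, 2 or 3 these tests over time could not pass either, for the same lack of arrangements, and the differences kept their signs (adjusted exact permutation p from 0.0972 to 0.167). The cultivar comparisons belong to the first 30 tests and are adjusted over those. Within 5 times, the A share in CDC Morrison was 3.70 points above that of AC Morgan in embryo (permutation p = 0.00823, adjusted 0.0206, same sign at 3 of 5 times) and 4.07 points higher in endosperm (permutation p = 0.0131, adjusted 0.0279, same sign at 4 of 5). The D share in endosperm was -2.63 points in the same direction of subtraction (permutation p = 0.0158, adjusted 0.0279, same sign at 4 of 5). In embryo the A share was 19.7 ± 1.63% in CDC Morrison and 8.15 ± 0.727% in AC Morgan at 6 h, but 36.2 ± 2.24% and 38.4 ± 1.76% at 48 h. All 3 of these cultivar calls were lost without replicate number 1, 2 or 3 (adjusted permutation p from 0.103 to 0.294), with their signs kept.

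The other genes of mixed-linkage glucan metabolism gave a mixed picture beside CSLH1. The list held 17 genes, 14 of the CSLF family and 3 GUB2 endohydrolase genes, and all 17 were tested. The deposited annotation names 3 further CSLF genes, no other CSLH gene and no CSLJ gene. Between 20 and 40 DPE in CDC Morrison 3 of 17 rose and 8 fell (median log2 fold change -2.12, against -0.22 over all genes, with 24.1% of all genes higher and 32.2% lower). In AC Morgan 3 rose and 7 fell (median -1.76, against -0.14 over all genes, with 26.2% of all genes higher and 31.5% lower). The 3 that rose in each cultivar were CSLF2_2Ag0000007, CSLF2_2Dg0002574 and CSLF7_3Dg0002125, further members of the synthase family. In CDC Morrison they rose by 6.94, 11.47 and 3.06, and in AC Morgan by 8.30, 10.38 and 3.93. All 4 CSLF6 genes fell in each cultivar between these ages, with log2 fold changes between those of CSLF6_7Ag0002427 (-6.24 in CDC Morrison, -3.31 in AC Morgan) and CSLF6_7Ag0002426 (-2.01 in CDC Morrison, -1.55 in AC Morgan), so the main synthase and CSLH1 moved in opposite directions.

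At 30 DPE the same 3 genes, CSLF2_2Ag0000007 (1.87, CDC Morrison over AC Morgan), CSLF2_2Dg0002574 (2.01) and CSLF7_3Dg0002125 (2.87), were higher in CDC Morrison and GUB2_1Ag0002790 was lower (-2.89), 4 of 17 past the threshold (17% of all genes higher, 19.2% lower). At 0 h of germination 1 of 17 was higher in embryo than in endosperm and 8 were lower (22.5% of all genes higher, 16.1% lower). Of these 8, CSLF2_2Ag0000007 (-4.41) and CSLF2_2Dg0002574 (-4.28) had the lowest values. At 24 h, 9 were higher and 5 lower in embryo (33.9% of all genes higher, 27.5% lower), with all 4 CSLF6 genes higher in embryo (0.96 to 3.17) and CSLF2 (-6.95 and -6.61) and CSLF7 (-2.89) lower, as CSLH1 was. From 6 to 24 h in embryo 11 of 17 rose and 2 fell (median 2.02, against 0.08 over all genes, with 29.7% of all genes higher and 24.9% lower), the 2 being the CSLF2 genes. In endosperm from 0 to 48 h, 4 of 17 rose and 4 fell, not above the shares over all genes (29.0% higher, 24.9% lower). The 3 GUB2 genes were among those that rose, from 8.27 for GUB2_1Dg0001299 to 10.47 for GUB2_1Ag0001279. The 4 that fell were CSLF genes.

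Genes with the most similar course were sought by Pearson correlation of group means (log2 CPM, prior count 2) with the mean of the 3 homeologs. Over the 16 groups of developing grain, among 55460 genes, the closest were 7Cg0001729 (annotated as Cyclin-T1-3, r = 0.989), 7Dg0000049 (a pentatricopeptide repeat protein, r = 0.989), 1Dg0001489 and 6Dg0001170 (no description, 0.987 and 0.986) and 6Cg0003397 (Protein FLX-like 3, 0.985). Over the 20 groups of germination, among 56822 genes, they were 2Dg0001831 (probable purine permease 11, r = 0.985), 5Ag0000636 (membrane steroid-binding protein 2, 0.982), 6Ag0001605 (tuliposide A-converting enzyme 1, 0.981), 1Dg0000111 (ATP-dependent 6-phosphofructokinase 3, 0.980) and 6Cg0003401 (transcription factor MYB30, 0.978). Ranked by Spearman correlation, 1 of these 5 genes was again among the first 5 in developing grain and 0 of 5 in germination. Each homeolog correlated with the mean of the other 2 at 0.956 (A), 0.778 (C) and 0.9499 (D) in developing grain and at 0.792 (A), 0.893 (C) and 0.941 (D) in germination.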

How the data were processed

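RNA of whole developing grain and of germinating embryo and endosperm was sequenced from TruSeq Stranded mRNA libraries (single-end). The authors trimmed reads with Trim Galore, checked them with FastQC, removed ribosomal reads with Bowtie2 and quantified the oat OT3098 v2 transcriptome with Salmon, and tximport gave the deposited estimated counts per gene (with versions not given in the sources used here). Normalized values that the authors deposited are on a log2-like scale from the variance-stabilizing transformation of DESeq2 and were used only in an alternative. Annotation text came from the same tables. No reference sequence was used here.

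Estimated counts were rounded to whole numbers. The filter kept genes that reached 5 counts in 5% of the libraries or more, TMM factors were computed, and edgeR 4.0.16 (R 4.3.3) fitted the quasi-likelihood model with 1 mean per group, separately for 47 libraries of developing grain and 60 of germination. P-values were adjusted by Benjamini-Hochberg over all genes of a contrast, with a threshold of 0.05. The SE of a log2 fold change is its absolute value divided by the square root of the quasi-likelihood F statistic. Median depth was 23528372 counts per library in developing grain and 13005868 in germination. Intervals of count ratios cover counting error only. Groups came from the sample labels. The labels do not say more of the replicates than their number. The study's methods state that each replicate of developing grain came from 1 panicle, and do not name the plant. P-values thus measure the spread between these samples. No 2 replicates agreed within sampling noise (chi-square per gene at least 2.67). The scripts were tested on simulated data.

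Homeolog shares were computed in libraries with a summed CSLH1 count of at least 50 and compared by two-sided permutation tests within strata (exact, or 100000 resamples), adjusted over 30 tests. A further 12 tests, and the omission of the 10 CDC Morrison germination libraries numbered 1, were added after seeing the data. The genes named were the 3 CSLH1 genes, a list of 17 mixed-linkage glucan genes taken from the identifiers the study plotted, and for each experiment the 5 genes of most similar pattern, by the Pearson correlation given in the text, with a mean of at least 1 CPM in at least 1 group. Marker lists were taken by annotated name. Members, lists and contrasts were chosen with earlier results of these data known. Alternatives were library size alone, RLE factors, DESeq2 1.42.0, filterByExpr, no filter, the replicate number as a block, each library left out, homeologs summed, limma 3.58.1 on the deposited normalized values, separate fits per cultivar or tissue, and all 48 libraries of developing grain. With a single library left out, scaling, quasi-likelihood dispersion and tests were redone. The gene filter and the dispersion trend stayed those of the full set.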

Additional observations from a re-analysis of the deposited data

Results flagged for a closer look

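The change from 30 to 40 DPE differed between CDC Morrison and AC Morgan by a test of the difference itself, for the A homeolog (-2.62 on the log2 scale) and the D homeolog (-2.47). Within CDC Morrison the change was 0.15 for A and 0.14 for D, and within AC Morgan it was 2.77 for A and 2.62 for D. Groups of 3 libraries were not tested for a library that stands apart.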

How the results depend on the processing

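The rise from 20 to 40 DPE, the cultivar difference at 30 DPE and the averaged differences between embryo and endosperm passed for 3 of 3 homeologs under each alternative run, except C at 3 h with library size alone (-0.49). Leaving out 1 library at a time, the difference between cultivars in the change from 30 to 40 DPE passed for 1 to 3 homeologs. The change of C from 5 to 10 DPE in CDC Morrison (-0.08) ranged from -0.74 to 2.63 and was past the threshold in the opposite direction without CDC Morrison 5 DPE replicate 1 (2.63), the only library with more than 0.2 CPM in that group.

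The labels do not say that replicate numbers pair samples, and not every pair of same-numbered libraries had a correlation of deviations over 0.1: between cultivars 2 of 23 in developing grain and 4 of 30 in germination did. Between the tissues 14 of 30 did (median 0.08, highest 0.5), against 8 of 60 pairs of unlike number (median -0.047). The replicate block gives each number 1 effect over all cultivars, tissues and times. It does not represent a pair of tissues within a cultivar and time. Such pairing was not tested, and the tests between embryo and endosperm treat the libraries as unpaired. With the replicate block D from 10 to 15 DPE in CDC Morrison no longer passed (-3.69, adjusted p = 0.0516, edgeR). C between cultivars in embryo over 5 times (-0.45) and A in endosperm from 24 to 48 h (-0.88) passed with it. These also passed with limma (-0.37 for C, -0.73 for A) and with library size alone (-0.42 for C, -0.91 for A). A from 24 to 48 h passed in a separate fit for endosperm as well (-0.83). The difference between tissues in the change of C from 0 to 48 h passed with library size alone (-1.09). Library size alone moved the median of all genes by -1.15 (CDC Morrison, 10 to 15 DPE) to 0.79 (embryo minus endosperm at 3 h in CDC Morrison). In CDC Morrison D from 10 to 15 DPE also missed the threshold with RLE factors (-3.64), limma (-1.19), no filter (-3.66) and all 48 libraries (-3.65). It missed it as well in a separate fit of that cultivar (-3.66). C between embryo and endosperm at 3 h in CDC Morrison missed it with no filter (-0.92), filterByExpr (-0.92) and library size alone (-0.19). Between the cultivars, A at 25 DPE (1.06) and D at 20 DPE (0.95) missed the threshold with limma. The higher C in embryo at 3 h than at 0 h missed it in a separate fit for embryo (0.84). Of the share tests fixed in the design 17 of 30 passed, and those on the same libraries depend on each other. Leaving out replicate number 1, 2 or 3 left 2 past the threshold each time, the A and D shares between embryo and endosperm over all times (-13.4 to -12.5 and 12.1 to 13.8 points). The other 15 were lost with their signs kept, 12 of them in tests at single times, which 2 libraries a group leave few arrangements. At 15 and 20 DPE few counts limit what single homeologs can show.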
